A study of Mus musculus with 4 samples.

Results

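The genes described here are 9 genes of V(D)J recombination and of early thymocytes: Rag1, Rag2, Dntt, Arpp21, Endou, Satb1, Ptcra, Themis and Tdrd5. They were taken by symbol from the deposited expression table, and all 9 were among its 16755 rows. The list was drawn up with the fold changes of these libraries in view, so the difference between genotypes in these genes is given as a description, without a test. The samples were bulk RNA of macrophages that live in the air sacs of the lung (alveolar macrophages), sorted by flow cytometry from mice. The OPNKO mice lacked osteopontin, a secreted glycoprotein encoded by Spp1 (C57BL6 OPNKO, Spp1-/-), and the mice they were set against were C57BL6 wild type (WT), with 2 libraries per genotype. All 4 samples carry a bleomycin tag, a drug that injures the lung, and the table's columns name day 14, while another label of the same samples states that no treatment was given. The sources used here do not give age, the number of animals per library or the surface markers of the sort.

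V(D)J recombination joins variable, diversity and joining segments into the genes of antigen receptors, in developing T cells in the thymus and developing B cells in the bone marrow. The RAG1 and RAG2 proteins together cut the DNA beside the segments, general DNA repair proteins rejoin the ends, and terminal transferase, encoded by Dntt, adds nucleotides at the joints. In thymocytes the beta chain is rearranged first and pairs with the pre-T alpha chain, encoded by Ptcra, and the alpha chain is rearranged later, in cells that carry both CD4 and CD8.

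The groups follow the sample titles, because title and genotype tag disagreed for 2 of the 4 samples. Spp1 had normalized read counts of 3847 and 4106 in the OPNKO libraries (replicates 2 and 1), against 606517 and 545719 in WT. Reads assigned to genes numbered 35793800 to 44759630 per library. Nothing in the labels says that replicates came from separate animals, so the spread between them may be technical. WT replicate 2 stood apart in transcripts of other lung cells: 11 of 12 fibroblast genes, 8 of 8 endothelial genes and 4 of 4 red cell genes were higher in it than in WT replicate 1, with medians of 2.19, 2.17 and 2.08 on the log2 scale. Defining alveolar macrophage genes were high in every library; the 17 markers, among them Marco, Mrc1 and Siglecf (listed as Siglec5), summed to 1061195 and 940377 in OPNKO and 1252509 and 1254269 in WT. Without the most abundant, Chil3 (listed as Chi3l3), the other 16 summed to 649721 and 629267 in OPNKO and 608719 and 619418 in WT, which turns the direction. Of these 17 markers, 3 rose (Cidec, Krt79 and Pparg) and 2 fell (Car4 and Ear2) at a limma adjusted p under 0.05, the threshold used throughout. The count of 5 was 4 without OPNKO replicate 1, 3 without OPNKO replicate 2 and 0 without either WT library.

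The promoters of Rag1, Rag2, Dntt and Ptcra are shown because these 4 encode the enzymes and the pre-receptor chain of the recombination stage. Ptcra was also the gene whose groups overlapped, with too few reads to judge a difference between genotypes. Each window runs from 250 bases before the RefSeq start to 50 bases after it (GRCm38.p6, 5′ to 3′ on the strand of the gene). Capitals mark the E-box, CANNTG, the motif bound by E proteins, which drive early lymphocyte genes.
Rag1 (chr2:101649483-101649782, minus strand): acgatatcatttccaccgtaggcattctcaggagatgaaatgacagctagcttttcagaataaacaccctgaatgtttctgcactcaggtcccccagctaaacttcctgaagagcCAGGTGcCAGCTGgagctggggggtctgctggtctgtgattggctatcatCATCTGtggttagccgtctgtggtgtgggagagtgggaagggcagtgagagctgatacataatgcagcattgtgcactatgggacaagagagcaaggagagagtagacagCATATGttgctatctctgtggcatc
Rag2 (chr2:101624462-101624761, plus strand): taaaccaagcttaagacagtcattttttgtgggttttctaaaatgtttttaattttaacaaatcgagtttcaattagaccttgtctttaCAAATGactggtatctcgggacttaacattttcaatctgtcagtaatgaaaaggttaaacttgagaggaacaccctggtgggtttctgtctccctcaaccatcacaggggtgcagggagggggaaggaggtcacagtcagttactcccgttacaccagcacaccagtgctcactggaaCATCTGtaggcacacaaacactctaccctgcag
Dntt (chr19:41029025-41029324, plus strand): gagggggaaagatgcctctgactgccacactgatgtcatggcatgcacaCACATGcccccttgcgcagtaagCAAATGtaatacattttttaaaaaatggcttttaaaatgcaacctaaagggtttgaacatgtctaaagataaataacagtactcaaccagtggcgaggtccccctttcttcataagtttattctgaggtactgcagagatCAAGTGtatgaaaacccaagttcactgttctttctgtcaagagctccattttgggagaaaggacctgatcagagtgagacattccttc
Ptcra (chr17:46763663-46763962, minus strand): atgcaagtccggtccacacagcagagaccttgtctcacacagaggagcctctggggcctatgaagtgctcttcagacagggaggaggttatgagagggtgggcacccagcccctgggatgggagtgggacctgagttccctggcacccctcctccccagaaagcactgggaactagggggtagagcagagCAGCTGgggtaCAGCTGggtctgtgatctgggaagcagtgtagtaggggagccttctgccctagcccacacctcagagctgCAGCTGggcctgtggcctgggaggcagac
The Rag1 window holds 4 E-boxes, those of Dntt and Ptcra hold 3 each and that of Rag2 holds 2. An E-box occurs in 72.3% of the 32851 promoter windows of the same length in the RefSeq table, so its presence does not set these promoters apart. The RUNX motif TGTGGT, searched on both strands, has 2 matches in the Rag1 window, 1 of which shares bases with an E-box (16.8% of all windows hold a match) and none in the other windows shown. The GATA motif AGATAA has 1 match in the Dntt window (11.2% of all windows), and the Ikaros motif TGGGAA has 1 in Rag1 and 2 in Ptcra (25.6% of all windows). The TCF-1 motif CTTTGA (16.0% of all windows) and the TATA box TATAAA (13.6%) have no match in these 4 windows. Of the 9 genes, 8 have a window in the RefSeq table, and Endou has none.

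The recombinase genes were higher in both OPNKO libraries than in both WT libraries. Rag1 (ENSMUSG00000061311) encodes the subunit with the DNA-cutting site and lies on chromosome 2 from 101638282 to 101649501, minus strand (GRCm38, GENCODE M21). Its normalized read counts were 4307 and 2861 in OPNKO replicates 2 and 1, against 554 and 462 in WT replicates 2 and 1. The means were 3584 ± 1023 in OPNKO and 508 ± 65.4 in WT (SD, n = 2 each), 7.05-fold higher in OPNKO, and the lower OPNKO library stood 5.16-fold above the higher WT library. The log2 fold change was 2.79 with a standard error of 0.18, on the log2(value + 1) scale used throughout. Rag2 (ENSMUSG00000032864), the partner subunit that reads a histone mark of active promoters, lies beside it on chromosome 2 from 101624718 to 101632529, plus strand. Its values were 132 and 66.2 in OPNKO, against 15.6 and 15.4 in WT, from 106 and 58 reads in OPNKO and 16 and 14 reads in WT. The Rag2 groups did not overlap, and the log2 fold change was 2.52 with a standard error of 0.41.

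Dntt (ENSMUSG00000025014; chromosome 19, 41029275 to 41059525, plus strand), the terminal transferase gene, had 1390.4 and 824 in OPNKO, against 179.6 and 168 in WT. Its means were 1107 ± 400.4 in OPNKO and 174 ± 8.30 in WT (SD, n = 2 each), a log2 fold change of 2.62 with a standard error of 0.23. Both OPNKO libraries again stood above both WT libraries, with a wider gap between the OPNKO libraries than between the WT libraries.

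Ptcra (ENSMUSG00000036858; chromosome 17, 46755663 to 46763712, minus strand), the pre-T alpha chain gene, was near the limit of detection. It had 16.2 and 5.71 in OPNKO, against 1.95 and 6.58 in WT, from 13 and 5 reads in OPNKO and 2 and 6 reads in WT. Ptcra groups overlapped, and the log2 fold change of 1.18 had a standard error of 0.79. At this depth a difference in Ptcra between genotypes was not detectable.

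The genes of thymocyte selection and chromatin were also higher in OPNKO. Themis (ENSMUSG00000049109; chromosome 10, 28668360 to 28883818, plus strand) encodes a T-lineage signalling protein needed for positive selection. It had 958 and 597 in OPNKO, against 201 and 172 in WT, a log2 fold change of 2.02 with a standard error of 0.22. Satb1 (ENSMUSG00000023927; chromosome 17, 51736187 to 51833290, minus strand) encodes a chromatin organizer of thymocytes that other cells express too. Its values were 2911 and 1639 in OPNKO, against 549 and 455 in WT, a log2 fold change of 2.12 with a standard error of 0.24. Neither gene overlapped between genotypes, and their mean folds, 4.17 for Themis and 4.53 for Satb1, were below the 7.05 of Rag1.

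Arpp21, Endou and Tdrd5 take no known part in the cutting or joining of DNA in V(D)J recombination. Arpp21 (ENSMUSG00000032503; chromosome 9, 112065091 to 112235938, minus strand) encodes an RNA-binding phosphoprotein best known from the brain and hosts the microRNA gene Mir128-2. It had 686 and 414 in OPNKO, against 97.6 and 71.3 in WT, a log2 fold change of 2.66 with a standard error of 0.27. Endou (ENSMUSG00000022468; chromosome 15, 97711015 to 97731339, minus strand), which encodes an endoribonuclease that cuts at uridines, had 763 and 508 in OPNKO, against 100.5 and 96.5 in WT. The Endou log2 fold change was 2.65 with a standard error of 0.21. Tdrd5 (ENSMUSG00000060985; chromosome 1, 156255296 to 156303664, minus strand) encodes a Tudor-domain protein of male germ cells that silences transposons. It had 197 and 111 in OPNKO, against 16.6 and 16.5 in WT, where it rests on 17 and 15 reads. Its mean fold of 9.30 was the highest of the 9 genes, with a log2 fold change of 3.08 and a standard error of 0.36. All 3 genes had groups that did not overlap.

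**Figure D1:**
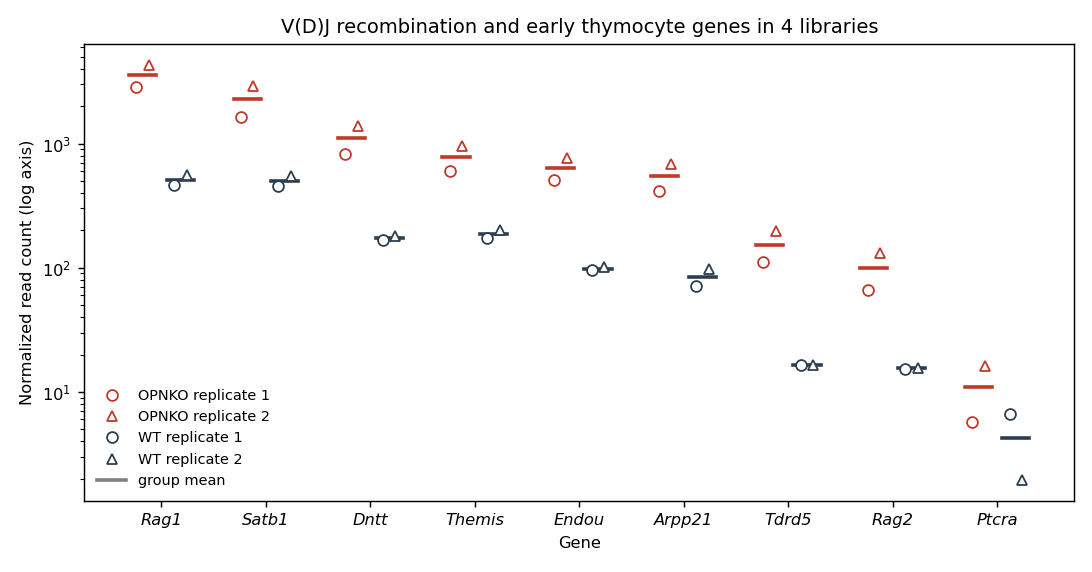
Normalized read count (log axis) of each of the 9 genes in the 4 libraries; circles are replicate 1, triangles replicate 2, bars the group means (n = 2). For 8 genes both OPNKO libraries lie above both WT libraries, and Ptcra alone overlaps.

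Of the 9 genes, 8 had both OPNKO libraries above both WT libraries, as did 27.7% of all 16430 genes tested. The same 8 passed a limma adjusted p of 0.05 across all genes, in which 2.33% of genes passed as higher in OPNKO, 1.98% as lower and 4.32% in either direction; since the 9 were chosen on this contrast, nothing is read from either count. Of the 8, 7 passed without OPNKO replicate 2 (all but Rag2), and 0 passed without WT replicate 1, without WT replicate 2 or when genes of low value were kept in the fit. The median log2 fold change of the 9 was 2.62, beside -0.00059 over all genes tested. With each library left out in turn this median lay between 2.24 (without OPNKO replicate 2) and 2.99 (without OPNKO replicate 1), and it was 2.67 without WT replicate 2. Over all genes 709 passed, while 4 did without WT replicate 1, 11 without WT replicate 2 and 1 with genes of low value kept. In the authors' deposited table the log2 fold changes of the 9 ran from 1.37 for Ptcra to 3.22 for Tdrd5. All 9 together made up 0.0255% and 0.0154% of reads in OPNKO replicates 2 and 1, against 0.00393% and 0.00323% in WT replicates 2 and 1. In bulk RNA, more cells that carry these transcripts and more transcript per cell cannot be told apart.

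Levels between genes are compared per kilobase of annotated exon. In OPNKO, Rag1 had 542 ± 155 and Dntt 483 ± 175 normalized reads per kilobase (SD, n = 2), and their ranges overlapped. Endou followed with 232 ± 65.7, Satb1 with 119.6 ± 47.3 and Themis with 66.6 ± 21.9, each below the one before in both libraries. Arpp21 (31.6 ± 11.0), Rag2 (28.9 ± 13.6) and Tdrd5 (22.2 ± 8.76) had overlapping ranges, and Ptcra was lowest at 8.53 ± 5.77. WT libraries gave the same order of the first 5 genes, with Rag1 at 76.9 ± 9.90 and Dntt at 75.8 ± 3.62 per kilobase, again overlapping. The lowest 4 genes in WT were Arpp21 (4.85 ± 1.07), Rag2 (4.52 ± 0.0532), Ptcra (3.33 ± 2.55) and Tdrd5 (2.38 ± 0.0139), and the range of Ptcra spanned Rag2 and Tdrd5 and overlapped Arpp21. The exon lengths add up all annotated isoforms, with 17428 bases for Arpp21, 19027 for Satb1 and 11682 for Themis. This lowers the per-kilobase level of genes with several isoforms, such as these.

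The OPNKO libraries also differed from each other. Every one of the 9 genes was higher in replicate 2 than in replicate 1 of OPNKO, with a median log2 ratio of 0.75 (1 library a side, no test). Rag1 was 1.51-fold higher in replicate 2, with a 95% counting interval of 1.43 to 1.59. Dntt was 1.69-fold higher (1.53 to 1.86), Satb1 1.78-fold (1.66 to 1.90) and Rag2 1.99-fold (1.43 to 2.79). These intervals cover counting error only. All 9 genes reached a ratio of 1.5, while 8.21% of all genes tested and 1.39% of those averaging 50 or more did so. The lowest ratio was that of Endou, with an interval of 1.33 to 1.70, and the interval of Ptcra, 0.948 to 10.2, included equality. Over the more abundant genes (mean value 50 or more), the median log2 ratio of these 2 libraries was -0.01 and the 5th to 95th percentile ran from -0.46 to 0.33.

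The WT libraries differed less in 8 of these genes, all but Ptcra. The Ptcra ratio of WT replicate 2 over WT replicate 1 was 0.297 (0.0293 to 1.66), from 2 and 6 reads. WT replicate 2 over WT replicate 1 gave a median log2 ratio of 0.10 for the 9 genes. The ratio was 1.20 for Rag1 (1.06 to 1.36) and 1.21 for Satb1 (1.06 to 1.37), and the intervals of the other 7 included equality. None of the 9 was 1.5-fold higher in WT replicate 2, a ratio reached by 12.9% of all genes tested and 2.98% of those averaging 50 or more.

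**Figure D2:**
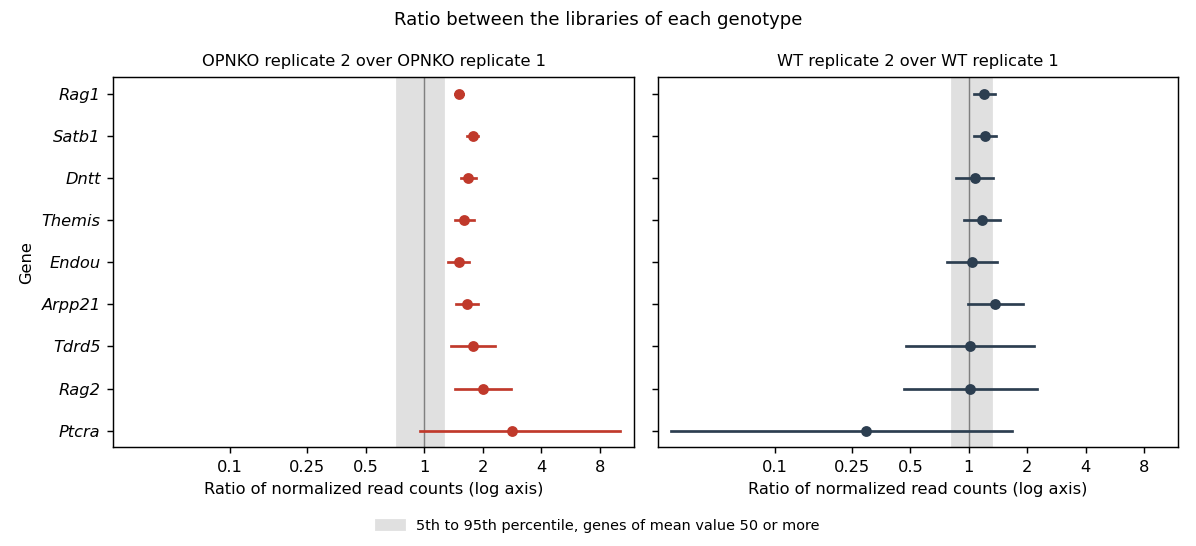
Ratio of normalized read counts (log axis) between the libraries of each genotype for the 9 genes, with 95% counting intervals; the grey band holds the 5th to 95th percentile of genes with a mean value of 50 or more. In OPNKO all points lie at 1.5-fold or above, outside the band, and in WT 7 of 9 intervals include 1.

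Endou, Dntt and Arpp21 varied least in proportion to Rag1, whose own reads ranged from 421 to 3460. Endou had 17.7 and 17.8 reads per 100 reads of Rag1 in OPNKO replicates 2 and 1, against 18.1 and 20.9 in WT replicates 2 and 1. Dntt had 32.3 and 28.8 in OPNKO, against 32.4 and 36.3 in WT, and Arpp21 had 15.9 and 14.5, against 17.6 and 15.4. For Endou, Dntt and Arpp21 the highest library was at most 1.26 times the lowest. The highest library was 1.44 times the lowest for Rag2 and 1.53 times for Tdrd5. Rag2 ranged from 2.31 to 3.33 per 100 and Tdrd5 from 2.99 to 4.57, with WT intervals wide enough to include both OPNKO values.

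Satb1 and Themis varied more, by 1.73 and 1.79 times. Satb1 had 67.6 and 57.3 reads per 100 of Rag1 in OPNKO, against 99.1 and 98.6 in WT. Themis had 22.3 and 20.9 in OPNKO, against 36.3 and 37.3 in WT. For both genes the values of the OPNKO libraries were below those of the WT libraries. This is a description with 2 libraries per genotype and no test: the counting intervals of Satb1 in OPNKO, 64.1 to 71.3 in replicate 2 and 53.7 to 61.2 in replicate 1, did not overlap each other, so libraries of 1 genotype differed by more than counting error. Ptcra had 0.376 and 0.200 reads per 100 of Rag1 in OPNKO, against 0.352 and 1.43 in WT. Its counting interval in WT replicate 1, from 6 reads, lay above that of OPNKO replicate 1 and overlapped the other 2.

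**Figure D3:**
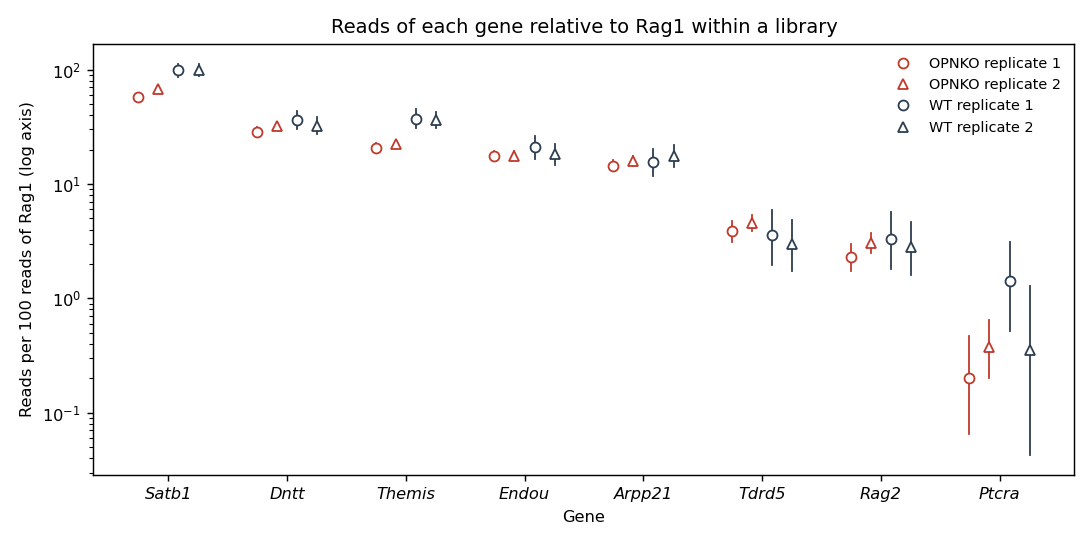
Reads of the other 8 genes per 100 reads of Rag1 in each library (log axis) with 95% exact binomial counting intervals. The highest library is at most 1.26 times the lowest for Endou, Dntt and Arpp21, and the points of Satb1 and Themis lie lower in OPNKO than in WT.

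The overlapping annotation bears on the Rag genes. B230118H07Rik spans both of them, sharing 80 exon bases with Rag1 on the same strand and 208 with Rag2 on the opposite strand. That is 1.21% and 6.07% of their exon bases. The sources used here do not say whether reads were counted by strand. Arpp21 and Tdrd5 also lie opposite other transcripts, over 3.33% and 2.54% of their exon bases. Themis and Satb1 do so over 1.31% and 0.67%, and Satb1 shares 0.82% with a transcript on its own strand. B230118H07Rik itself had 265 and 322 in OPNKO, against 359 and 333 in WT (log2 fold change -0.24, limma adjusted p = 0.394). Of the 5 genes that start within 500 kb of Rag1, other than Rag2, 0 passed by limma, 1 was higher at an unadjusted p under 0.05, and 0 passed by edgeR or DESeq2. Their median log2 fold change was 0.03.

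The proteins that repair the cut ends are made in most cells, and their genes were measured as a separate list. Of 13 V(D)J break and repair factors, 0 passed by limma in either direction. At an unadjusted p under 0.05, 5 were higher, a count given without the share over all genes, from which nothing is read. By edgeR 0 passed, and by DESeq2 1 did. Xrcc5, the Ku80 gene, had 1363 and 1146 in OPNKO, against 795 and 963 in WT (log2 fold change 0.51, limma adjusted p = 0.0705). Lig4, the ligase of the pathway, was at 0.57 (limma adjusted p = 0.164), and the DNA-PK kinase gene Prkdc had 0.25 (limma adjusted p = 0.119). The median of the list was 0.13.

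Among 20 transcription factors of the T lineage, 5 rose in OPNKO and 15 did not pass, beside 2.33% of all genes that rose. This list and the others here were chosen with earlier results of these data known, so their counts describe and give no independent support. Myb, which sustains immature blood and T-lineage cells, had 993 and 661 in OPNKO, against 168 and 195 in WT (log2 fold change 2.16, limma adjusted p = 0.00342). Bcl11b and Tcf7, which establish the T lineage, rose by 1.63 and 1.83 on the log2 scale (limma adjusted p = 0.00599 for both), and Gfi1 rose by 1.95 (limma adjusted p = 0.0170). Of the 20, 15 had a positive log2 fold change and the others a negative one, with a median of 0.40. Runx3 was at -0.72 (limma adjusted p = 0.0504), Gata3 at 0.68 (limma adjusted p = 0.128) and Notch1 at 0.0034 (limma adjusted p = 0.986). The count of 5 was 7 without OPNKO replicate 1, 4 without OPNKO replicate 2, and 0 without either WT library.

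Of 16 genes that mark stages of thymocytes, 4 rose and 1 fell. Ccr9, the receptor for the thymic chemokine CCL25, had 759 and 449 in OPNKO, against 175 and 105 in WT (log2 fold change 2.10, limma adjusted p = 0.0151). The water channel gene Aqp11 rose by 2.07 on the log2 scale (limma adjusted p = 0.0195), Cd2 by 1.71 (limma adjusted p = 0.00291) and Rmnd5a by 0.46 (limma adjusted p = 0.0175). Cd2 and Rmnd5a were nearly level between the OPNKO libraries (log2 ratios of replicate 2 over replicate 1 of 0.13 and 0.07), unlike Ccr9 (0.76) and Aqp11 (0.54). Cd24a, a surface glycoprotein gene also expressed by myeloid cells, fell by 0.51 (limma adjusted p = 0.0186). Of the 16, 10 had a positive and 6 a negative log2 fold change, with a median of 0.21. Besides Cd24a, the negative ones were Dtx1 at -0.94 (limma adjusted p = 0.120) and Hes1 at -0.69 (limma adjusted p = 0.0709). Kit was at -0.67 (limma adjusted p = 0.440), Il2ra at -0.37 (limma adjusted p = 0.268) and Slamf6 at -0.0059 (limma adjusted p = 0.978). Without OPNKO replicate 2 the count of 5 fell to 3, and it was 0 without WT replicate 1 and 1 without WT replicate 2.

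Genes of the T cell receptor complex, its coreceptors and its signalling moved one way in sign: all 20 tested had a positive log2 fold change, 8 rose and 12 did not pass. Cd8a had 1873 and 1181 in OPNKO, against 335 and 258 in WT (log2 fold change 2.34, limma adjusted p = 0.00364). Its partner Cd8b1 rose by 2.03 on the log2 scale (limma adjusted p = 0.0103), the kinase gene Lck by 1.65 (limma adjusted p = 0.0131) and the beta chain constant gene Trbc2 by 1.86 (limma adjusted p = 0.0150). The alpha chain constant gene Trac had 329 and 178 in OPNKO, against 207 and 150 in WT, 0.45 on the log2 scale (limma adjusted p = 0.439). The median of the list was 0.91, and 19 of 20 were higher in replicate 2 than in replicate 1 of OPNKO, with a median log2 ratio of 0.62. The count was 11 without OPNKO replicate 1, 5 without OPNKO replicate 2 and 0 without either WT library.

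Segments of the T cell receptor, the substrate of the recombinase, were lowly expressed. The table held 97 variable and joining segments, which together had 1575 and 1018 normalized reads in OPNKO, against 486 and 412 in WT. Of the 78 tested, 68 had a positive log2 fold change with a median of 1.36, and 2 rose, Trbv13-1 (2.11, limma adjusted p = 0.0386) and Trbv13-2 (1.56, limma adjusted p = 0.0471). This share is near the 2.33% of all genes that passed as higher, so the count of 2 is no result about the segments. Neither passed when any 1 library was left out, and 1 of the 2 passed by edgeR. At an unadjusted limma p under 0.05, 33 of the 78 were higher and 0 lower. The share of all genes at that threshold is not given here, so nothing is read from this count. Both OPNKO libraries lay above both WT libraries in 51 of the 78, beside 27.7% of all genes tested. Many segments resemble each other closely and may share reads, which makes the value of any single segment uncertain.

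Markers of other cells gave a different picture between genotypes. Of 17 genes of mature T and NK cells, 0 rose by limma (0 at an unadjusted p under 0.05, and 0 by edgeR or DESeq2) and 1 fell. This was Ctla4, an inhibitory receptor gene of activated and regulatory T cells, with 266 and 289 in OPNKO, against 538 and 564 in WT (log2 fold change -0.99, limma adjusted p = 0.00734). Ccr7, a homing receptor gene of T cells and dendritic cells, was at -0.96 (limma adjusted p = 0.0709), Klf2 -0.41 (limma adjusted p = 0.119) and Foxp3 -0.77 (limma adjusted p = 0.141). The list had 5 positive and 12 negative log2 fold changes with a median of -0.41, and its summed level was 5140 and 5890 in OPNKO and 6475 and 5752 in WT, with none of the markers at 0. Without Il7r, its most abundant gene, the sums were 2773 and 2386 in OPNKO and 3909.6 and 3249 in WT. Ctla4 passed without OPNKO replicate 1 and without OPNKO replicate 2, and the list had 0 calls without either WT library. Between the OPNKO libraries, 12 of the 17 were higher in replicate 2 than in replicate 1, with a median log2 ratio of 0.47. The difference in fold change between this list and the 9 genes was not tested.

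Developing B cells also use the recombinase. Of 10 genes of B cell progenitors and B cells tested, 1 rose, Cd22 (log2 fold change 0.36, limma adjusted p = 0.0259), which encodes an inhibitory lectin, and it did not pass when any 1 library was left out. The surrogate light chain genes of B progenitors were scarce: Vpreb1 had 7.47 and 5.71 in OPNKO, against 6.83 and 8.78 in WT, and Vpreb3 had 8.71 and 1.14, against 10.7 and 4.39. Cd79a, of the B cell receptor, was at -0.39 on the log2 scale (limma adjusted p = 0.215) and Ebf1 at -0.68 (limma adjusted p = 0.225). The median of the list was -0.27, and its summed level was 12461 and 14109 in OPNKO and 11334 and 10990.4 in WT. Cd22 carried most of each sum, and without it the sums were 2219 and 3265 in OPNKO and 3164 and 2741 in WT. Between the OPNKO libraries, 2 of the 10 genes were higher in replicate 2, with a median log2 ratio of -0.13.

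Genes of thymic epithelium, the stroma in which thymocytes grow, included 2 defining members near 0. Foxn1, its master regulator, had 1.24 in OPNKO replicate 2, the value of 1 read, and was at 0 in the other 3 libraries. Psmb11, its thymus-specific proteasome subunit, had 4.98 and 1.14 in OPNKO and was at 0 in both WT libraries. Epcam, shared with lung epithelium, made up most of the summed level of 644 and 439 in OPNKO and 521 and 576 in WT. Of 8 such genes tested, 0 passed by limma, 0 at an unadjusted p under 0.05 and 0 by edgeR or DESeq2. All 8 were higher in replicate 2 than in replicate 1 of OPNKO, with a median log2 ratio of 0.52. The part of any of these other cells in the levels of the 9 genes was not tested.

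**Figure D4:**
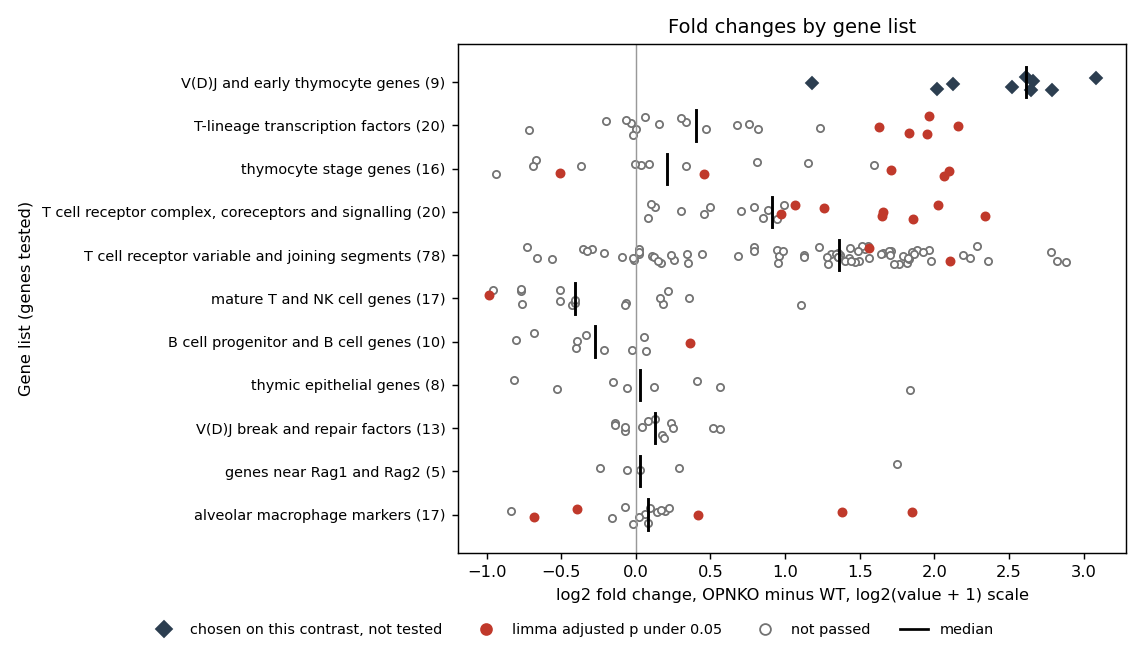
Log2 fold change (OPNKO minus WT) of single genes by list, with the number tested in brackets and the median as a black bar; red points passed a limma adjusted p of 0.05. The 9 genes have a median of 2.62, the receptor complex list 0.91 and the mature T and NK cell list -0.41.

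The 10 genes most like Rag1, Rag2 and Dntt were found by the distance between centred log2 profiles over the 4 libraries, among genes averaging 50 or more. The closest was Spo11 (distance 0.27), which encodes the enzyme that makes the DNA breaks of meiosis. Spo11 had 147 and 103 in OPNKO, against 23.4 and 19.7 in WT. Cd8a (0.36), Dgkeos (0.42), Myb (0.56), Patj (0.60), Cd8b1 (0.63), H2-Q2 (0.67), Aqp11 (0.68), Ccr9 (0.69) and Ephb6 (0.71) followed. Of these 10, 5 belong to the lists above. Patj, listed as Inadl, encodes a cell polarity scaffold and had 1760.1 and 1435 in OPNKO, against 279 and 367 in WT. Dgkeos is annotated as antisense, so its value is uncertain without knowledge of strand, and H2-Q2 has near-identical class I copies. For comparison, Endou lay at 0.14, Rag1 at 0.22, Arpp21 at 0.23 and Tdrd5 at 0.45 from the same profile. Satb1 lay at 0.53, Themis at 0.63 and Ptcra at 1.85. Rag1 is part of that profile and the others were chosen on this contrast, so these distances are no independent scale.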

How the data were processed

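Bulk RNA was measured in 4 libraries, of 10 stranded mRNA libraries built per the labels. Per the submitters' processing notes, the tools were STAR 2.4.1d, HTSeq 0.6.1p1, edgeR and Trim Galore 0.4.0, without role or order; the sources used here do not give genome build, annotation or strand setting. The authors deposited 1 table: per the file headers, a normalized expression value per library, which is a signal equal to whole reads over 1 factor per library. The authors' log2 fold change, standard error, Wald score and p-value are further columns, per the file headers. The factors recovered from the values gave whole reads, to within 0.001, for 100% of values. No use was made of 2 unlabelled columns, and 1 row with a blank symbol was left out.

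limma 3.58.1 with trend (R 4.3.3) was run on log2(value + 1) of the deposited signal, OPNKO minus WT, without covariates, among 16430 genes averaging 1 or more (324 left out), with Benjamini-Hochberg adjustment over them, called under 0.05. A fold change on this scale is smaller for low genes. With 2 libraries against 2, the smallest two-sided p of an exact permutation test is 0.333. Counts at an unadjusted p are given without the share over all genes, so they only describe. Counting intervals are exact (Poisson or binomial, 95%) on recovered reads. Alternatives were scaling factors, filters, pseudocounts, each library left out, a replicate block, and count tests with edgeR 4.0.16 and DESeq2 1.42.0. Members and lists were chosen with earlier results of these data known, and 3 lists of other lung cells and the receptor segments were added later. Named genes were the 9, Spp1, up to 4 per list with the smallest limma p, genes near Rag1 and the 10 nearest profiles outside the 9. Others were chosen after their values were seen. Among them were Gfi1, Runx3, Gata3, Notch1, Dtx1, Hes1, Kit, Il2ra, Slamf6, Trac, Ear2 and Chil3. The rest of them were Il7r, Vpreb1, Vpreb3, Foxn1, Epcam, Marco, Mrc1, Siglecf and the segments. Some genes that the rule names are not reported here. Positions came from GENCODE M21 (GRCm38), in which 16542 of 16755 identifiers matched; promoters came from RefSeq (GRCm38.p6). Python 3.11.15, pandas 2.3.3, scipy 1.17.1 and matplotlib 3.10.9 were used.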

Additional observations from a re-analysis of the deposited data

How the results depend on the processing

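The median log2 fold change of the 9 genes lay between 2.59 and 2.67 under other pseudocounts, filters, scalings and tests, and between 2.24 and 2.99 with a library left out. With a mean value of at least 10, and by edgeR, it was the median of 8 genes, without Ptcra. The median log2 ratio of OPNKO replicate 2 over OPNKO replicate 1 lay between 0.75 and 0.79. Over all genes, 709 were called; this was 1 without a filter on low values, 1122 by DESeq2 and 4 to 545 with a library left out. Without the filter, no gene of any list was called (0 in each). By DESeq2, 1 repair factor rose and 2 mature T and NK cell genes fell. Same-numbered libraries did not deviate together (correlation -0.02), and the labels do not pair them; with the replicate block 1566 genes were called, 8 transcription factors, 13 receptor genes, 1 repair factor, 2 mature T and NK cell genes, 6 receptor segments and 1 gene near Rag1. By edgeR, 1 segment was called. With a library left out, calls ranged from 0 to 7 among transcription factors, 0 to 5 among stage genes, 0 to 11 among receptor genes, 0 to 3 among mature T and NK cell genes and 0 to 4 among macrophage markers, and were 0 among repair factors, B cell genes, receptor segments, thymic epithelial genes and genes near Rag1. Leaving out a library leaves 1 in its group, and its spread is then taken to equal that of the remaining pair. The log2 fold change of Dll4, a thymic epithelial gene, turned to 0.11 without WT replicate 2 and was -1.17 without WT replicate 1, against -0.53 with all libraries. The cause of these differences was not tested. Rag2, Tdrd5 and Ptcra rest on fewer than 20 WT reads per library, which limits their precision.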
